A study of Homo sapiens with 32 samples.

Results

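The RANKL axis and the TRAIL receptors were followed as 9 genes in 2 human germ cell cancer lines. TNFSF11 encodes RANKL, TNFRSF11A its receptor RANK, TNFRSF11B the soluble decoy osteoprotegerin (OPG), and LGR4 a further RANKL receptor. TNFSF10 encodes TRAIL, a ligand that OPG also binds, and TNFRSF10A to TNFRSF10D encode the 4 membrane receptors of TRAIL. The genes were taken by symbol from a table of 61541 genes, 35258 of them with a symbol, and each of the 9 symbols matched 1 row. The 32 libraries came from NTera2, a line derived from an embryonal carcinoma and grown in DMEM, and TCam-2, a line derived from a seminoma and grown in RPMI. Each line received vehicle (D-PBS), RANKL, OPG or denosumab, an antibody against human RANKL, for 48 h in serum-containing medium. Every one of the 8 groups held 4 libraries, 1 from each of 4 independent experiments on cells at different passages. RANKL and OPG were given at 1 µg/ml, and the dose of denosumab is not given under its name in the sources used here. All groups of a line therefore share the line and the medium, and each line stands for a single tumour. The question the design poses is what RANKL and its inhibitors do to the transcripts of such cells.

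RANKL is a membrane-bound or shed trimer of the TNF family. It binds RANK, which recruits TRAF adaptors and switches on NF-kB, and it is best known for driving the formation of osteoclasts. OPG has no membrane anchor and takes up RANKL before it meets RANK, and denosumab blocks the same contact. LGR4 is known first as a receptor of the R-spondins, which raise WNT signalling. TRAIL-R1 (TNFRSF10A) and TRAIL-R2 (TNFRSF10B) carry a cytoplasmic death domain that recruits FADD and caspase-8. TRAIL-R3 (TNFRSF10C) is tied to the membrane by a lipid anchor and TRAIL-R4 (TNFRSF10D) has a truncated death domain, so both bind TRAIL without forming a full death-inducing complex and are called decoys. RNA sequencing reads the cells' own transcripts and not the added proteins.

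The libraries held 11385500 to 30499538 counts in NTera2 and 10585247 to 20257935 in TCam-2. The lines matched their labels: the summed level of 6 embryonal carcinoma markers was 3270 to 3730 counts per 1000000 (CPM) in NTera2 libraries and 498 to 625 CPM in TCam-2 libraries, and that of 6 seminoma markers was 45 to 61.5 CPM and 2010 to 2350 CPM. The summed level of 6 immune cell markers was at most 2.4 CPM in any library, with PTPRC at 0 counts in all NTera2 libraries and CD3E at 0 counts in all TCam-2 libraries. Fibroblast markers summed to 55.6 to 73.7 CPM in NTera2 and 251 to 318 CPM in TCam-2. The TCam-2 sum was mostly COL1A2 (median 273 CPM, against 0.623 CPM in NTera2). COL1A1 and PDGFRB were higher in NTera2 (medians of 27.6 and 37.1 CPM, against 7.44 and 3.57 CPM). Osteoblast markers summed to 159 to 194 CPM and 403 to 467 CPM, with ALPL the only one of them to average at least 1 CPM. Endothelial markers summed to 79.3 to 102 CPM and 27.9 to 40.1 CPM. The NTera2 sum was mostly TEK (median 77.1 CPM, against 14.5 CPM in TCam-2), while VWF and CDH5 were higher in TCam-2. No difference in a cell type is read from these sums. In bulk RNA, fewer cells with a transcript and less of it per cell cannot be told apart. RNA integrity was 6.1 and 3.7 in TCam-2 RANKL replicates 2 and 4 and higher in every other library with a value.

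In GRCh38, as the count table gives it, TNFSF11 lies on the forward strand at chr13:42562736-42607174, TNFRSF11A on the forward strand at chr18:62325287-62387659, LGR4 on the reverse strand at chr11:27365961-27472790 and TNFSF10 on the reverse strand at chr3:172505508-172523430. Start-site windows were matched for 4 of the 9 genes in RefSeq (GRCh38.p14), each from 250 bases before a gene's start to 50 after it. TNFSF11 has 2 such starts. The windows range widely in CpG dinucleotides, from few at TNFSF10 and the first TNFSF11 start, through the second TNFSF11 start and LGR4, to many at TNFRSF11A. CG pairs are in capitals and each sequence runs 5′ to 3′ on the gene's strand. The windows are chr13:42562486-42562785 (+), chr13:42573902-42574201 (+), chr18:62325060-62325359 (+), chr11:27472741-27473040 (-) and chr3:172523381-172523680 (-).
TNFSF11 start 1: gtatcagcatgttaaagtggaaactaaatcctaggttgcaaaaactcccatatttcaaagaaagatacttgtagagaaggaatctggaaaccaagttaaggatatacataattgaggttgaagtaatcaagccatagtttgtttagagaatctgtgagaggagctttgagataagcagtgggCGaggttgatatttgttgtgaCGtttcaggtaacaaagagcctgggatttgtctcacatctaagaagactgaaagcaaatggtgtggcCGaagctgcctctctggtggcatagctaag
TNFSF11 start 2: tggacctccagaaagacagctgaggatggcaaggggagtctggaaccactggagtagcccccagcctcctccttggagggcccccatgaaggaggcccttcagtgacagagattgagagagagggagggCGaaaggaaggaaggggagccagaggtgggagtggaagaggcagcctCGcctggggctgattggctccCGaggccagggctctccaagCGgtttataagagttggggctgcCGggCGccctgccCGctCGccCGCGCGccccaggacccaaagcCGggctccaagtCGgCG
TNFRSF11A: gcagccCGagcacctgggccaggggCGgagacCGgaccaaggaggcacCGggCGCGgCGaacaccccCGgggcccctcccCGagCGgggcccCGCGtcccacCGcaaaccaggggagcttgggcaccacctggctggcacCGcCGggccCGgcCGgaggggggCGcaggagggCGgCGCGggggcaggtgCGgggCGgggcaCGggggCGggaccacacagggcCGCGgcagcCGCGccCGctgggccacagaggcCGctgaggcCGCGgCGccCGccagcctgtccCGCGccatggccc
LGR4: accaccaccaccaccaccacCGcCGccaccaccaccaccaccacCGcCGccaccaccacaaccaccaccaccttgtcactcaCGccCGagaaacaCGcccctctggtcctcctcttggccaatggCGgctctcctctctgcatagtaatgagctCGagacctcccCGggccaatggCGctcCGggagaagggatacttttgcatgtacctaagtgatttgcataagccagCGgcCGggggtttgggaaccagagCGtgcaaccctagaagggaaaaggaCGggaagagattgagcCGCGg
TNFSF10: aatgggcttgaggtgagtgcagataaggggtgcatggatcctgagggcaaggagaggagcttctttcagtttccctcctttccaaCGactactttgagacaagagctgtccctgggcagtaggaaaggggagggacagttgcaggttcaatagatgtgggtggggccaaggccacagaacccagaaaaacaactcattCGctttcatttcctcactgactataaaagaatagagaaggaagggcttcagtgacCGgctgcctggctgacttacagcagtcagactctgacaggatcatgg

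TNFSF11 start 1 and TNFSF10 each held 3 CpG pairs, and 18.2% of the 35116 windows of all genes held fewer. LGR4 held 18, with 55.5% of all windows holding fewer, and TNFRSF11A held 37, with 88.7% holding fewer. TNFSF11 start 2 held 14 CpG pairs, which is the median of all windows. Both strands were searched for the TATA box TATAAA, the CCAAT box, the GC box GGGCGG, the AP-1 motif TGANTCA and the NF-kB motif. Distances are from the leftmost base of a match to the start. TATAAA was found 31 bases before the TNFSF10 start and, on the reverse strand, 30 bases before the second TNFSF11 start (11.5% of all windows hold it). GGGCGG was found 4 times in TNFRSF11A, at 228, 80, 58 and 45 bases before the start (45% of windows). CCAAT was found in LGR4 at 132 and 81 bases before the start and in the second TNFSF11 window on the reverse strand 62 bases before it (34.6%). TGANTCA (7.71% of windows) and the NF-kB motif (12.3%) had no match in the 5 windows, which says only that these letters are not there. None of these data shows which start the cells used.

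The other 5 genes lie on chromosome 8 in the same build. TNFRSF10B (23020133 to 23069031), TNFRSF10C (23102921 to 23117050), TNFRSF10D (23135588 to 23164027) and TNFRSF10A (23190452 to 23225061) lie in this order, TNFRSF10C on the forward strand and the others on the reverse strand, and TNFRSF11B lies far from them at 118923557 to 118951885 on the reverse strand.

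Without added ligand or inhibitor, TNFSF11, TNFRSF11A and TNFRSF11B were low in both lines and lower in TCam-2. LGR4 and the TRAIL receptors stood above them per kilobase of gene model, and the TRAIL receptors were differently composed in the lines. In edgeR's quasi-likelihood test, TCam-2 vehicle was lower than NTera2 vehicle for TNFSF11, TNFRSF11A, TNFRSF11B, LGR4, TNFRSF10A and TNFRSF10B and higher for TNFRSF10C and TNFRSF10D. That is 8 of the 8 genes tested, where 76.2% of the 16816 genes tested passed an adjusted p of 0.05. Of all genes 38.8% passed as lower and 37.4% as higher in TCam-2, so a difference between the lines is common and is not particular to these genes. TNFSF10 did not reach the count filter. TNFSF11 and TNFRSF11B reached it through NTera2 and not in TCam-2 alone, so they had to differ.

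TNFSF11 (RANKL) stood at 2.29, 1.48, 1.81 and 1.3 CPM in NTera2 vehicle replicates 1 to 4 and at 0, 0, 0.47 and 0 CPM in those of TCam-2. Every NTera2 library was above every TCam-2 library. The mean was 1.72 ± 0.436 CPM (SD, n = 4) against 0.118 ± 0.235 CPM, a log2 fold change of -3.75 (SE 0.686, edgeR adjusted p = 0.000105), or 13.5-fold lower in TCam-2. TNFSF11 reached the count filter through NTera2 and so had to differ, and its p adds no support. The TCam-2 value rests on 6 counts in replicate 3; without that library the TCam-2 vehicle group held no count and the fitted value moved to -7.65 (edgeR adjusted p = 8.27e-06), which is no bound. Over all 16 TCam-2 libraries 21 counts were found, in 6 libraries, or 0.0923 CPM with a 95% exact Poisson interval of 0.0571 to 0.141 for counting error only, against 467 counts in NTera2.

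TNFRSF11A (RANK) stood at 8.08, 7.66, 7.46 and 6.21 CPM in NTera2 vehicle and at 2.73, 0.733, 2.12 and 3.09 CPM in TCam-2 vehicle. The groups did not overlap, and replicate 2 was the lowest of TCam-2. The means were 7.35 ± 0.807 and 2.17 ± 1.04 CPM (SD, n = 4), a log2 fold change of -1.72 (SE 0.276, edgeR adjusted p = 2.69e-05). RANK transcript was thus present in all 16 libraries of TCam-2, from 0.733 to 3.5 CPM, where TNFSF11 had counts in 6.

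TNFRSF11B (OPG) stood at 1.86, 1.67, 1.65 and 1.54 CPM in NTera2 vehicle and had no count in any TCam-2 vehicle library. Against the 3 counts that a count of 0 allows over the group, 0.0595 CPM, TCam-2 was at least 28.2-fold lower (edgeR adjusted p = 1.09e-06). TNFRSF11B too reached the count filter through NTera2 and so had to differ, and its p adds no support. TCam-2 OPG and denosumab libraries also had no TNFRSF11B count, which allows up to 0.0528 and 0.0545 CPM. The 6 counts found in TCam-2 were 2, 3 and 1 in RANKL replicates 1, 2 and 4, or 0.0264 CPM over the line (95% exact Poisson interval 0.00967 to 0.0574). A set of 40 genes present in NTera2 alone summed to 0.135 to 1.97 CPM in TCam-2 libraries against 2080 CPM in NTera2. At that share of the NTera2 level, 0.00168, 0.0252 and 0.0151 TNFRSF11B counts would be expected in RANKL replicates 1, 2 and 4. Whether these 6 counts include reads from other libraries was not tested.

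LGR4 was the most abundant RANKL receptor transcript in both lines. It stood at 81.5, 65, 74.3 and 77.1 CPM in NTera2 vehicle and 52, 40.4, 49 and 39.4 CPM in TCam-2 vehicle, so the lines did not overlap. The means were 74.5 ± 6.98 and 45.2 ± 6.26 CPM (SD, n = 4), a log2 fold change of -0.71 (SE 0.103, edgeR adjusted p = 9.89e-06). Per kilobase of gene model, the scale on which genes can be compared, LGR4 was at 11.7 CPM/kb and TNFRSF11A at 0.817 CPM/kb in NTera2 vehicle, and at 7.11 and 0.241 CPM/kb in TCam-2 vehicle.

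TNFSF10 (TRAIL) was close to undetected in both lines. It had counts in replicate 1 alone of either vehicle group, at 0.109 CPM for NTera2 and 0.39 CPM for TCam-2. Over all libraries it had 19 counts in 6 of 16 NTera2 libraries (0.0716 CPM, 95% exact Poisson interval 0.0431 to 0.112) and 12 counts in 6 of 16 TCam-2 libraries (0.0527 CPM, 0.0272 to 0.0921). The intervals overlap, and no treatment group exceeded 8 counts.

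The death-domain receptors were lower in TCam-2. TNFRSF10B (TRAIL-R2) stood at 164, 179, 161 and 157 CPM in NTera2 vehicle and 71, 69.5, 72.6 and 60.4 CPM in TCam-2 vehicle, with no overlap. Its log2 fold change was -1.26 (SE 0.08, edgeR adjusted p = 3.57e-10), or 2.39-fold lower. TNFRSF10A (TRAIL-R1) stood at 23.9, 26.5, 26.8 and 26.8 CPM in NTera2 vehicle and 17.2, 15.6, 12.3 and 14.8 CPM in TCam-2 vehicle. These groups too were apart, with a log2 fold change of -0.78 (SE 0.126, edgeR adjusted p = 2.95e-05). The opposite-strand gene TNFRSF10A-DT overlaps TNFRSF10A over 591 bases and had its own counts. Pooled over a line's libraries and divided by their raw totals, without the scaling factors used elsewhere, TNFRSF10A-DT was at 5.63 CPM beside 27.6 CPM of TNFRSF10A in NTera2, and at 1.64 beside 12.2 CPM in TCam-2. The library kit marks strand, but the strand setting of the counting is not given in the sources used here, so reads of the pair may not be told apart.

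The decoy receptors were higher in TCam-2. TNFRSF10C (TRAIL-R3) stood at 5.13, 5.92, 5.5 and 7.21 CPM in NTera2 vehicle and 16.8, 19, 21 and 17.6 CPM in TCam-2 vehicle. No NTera2 library reached the lowest TCam-2 library, and the log2 fold change was 1.66 (SE 0.149, edgeR adjusted p = 2.82e-08), or 3.16-fold. TNFRSF10D (TRAIL-R4) stood at 28.1, 29.6, 25.7 and 24.8 CPM in NTera2 vehicle and 40.7, 41.3, 40.4 and 37.8 CPM in TCam-2 vehicle. It too did not overlap and was 1.5-fold higher (log2 fold change 0.58, SE 0.0998, edgeR adjusted p = 5.35e-05). The level of TNFRSF10C is uncertain: 35.1% of its 52-base stretches, the read length, lie in other gene models on the same strand, and it overlaps LOC254896 over 638 bases on that strand. On the same pooled, unscaled counts LOC254896 was at 1.97 CPM beside 6.02 CPM of TNFRSF10C in NTera2, and at 0.263 beside 15.7 CPM in TCam-2. How reads in shared stretches were counted is not given in the sources used here. No 52-base stretch was shared between any of the 9 genes.

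**Figure D1:**
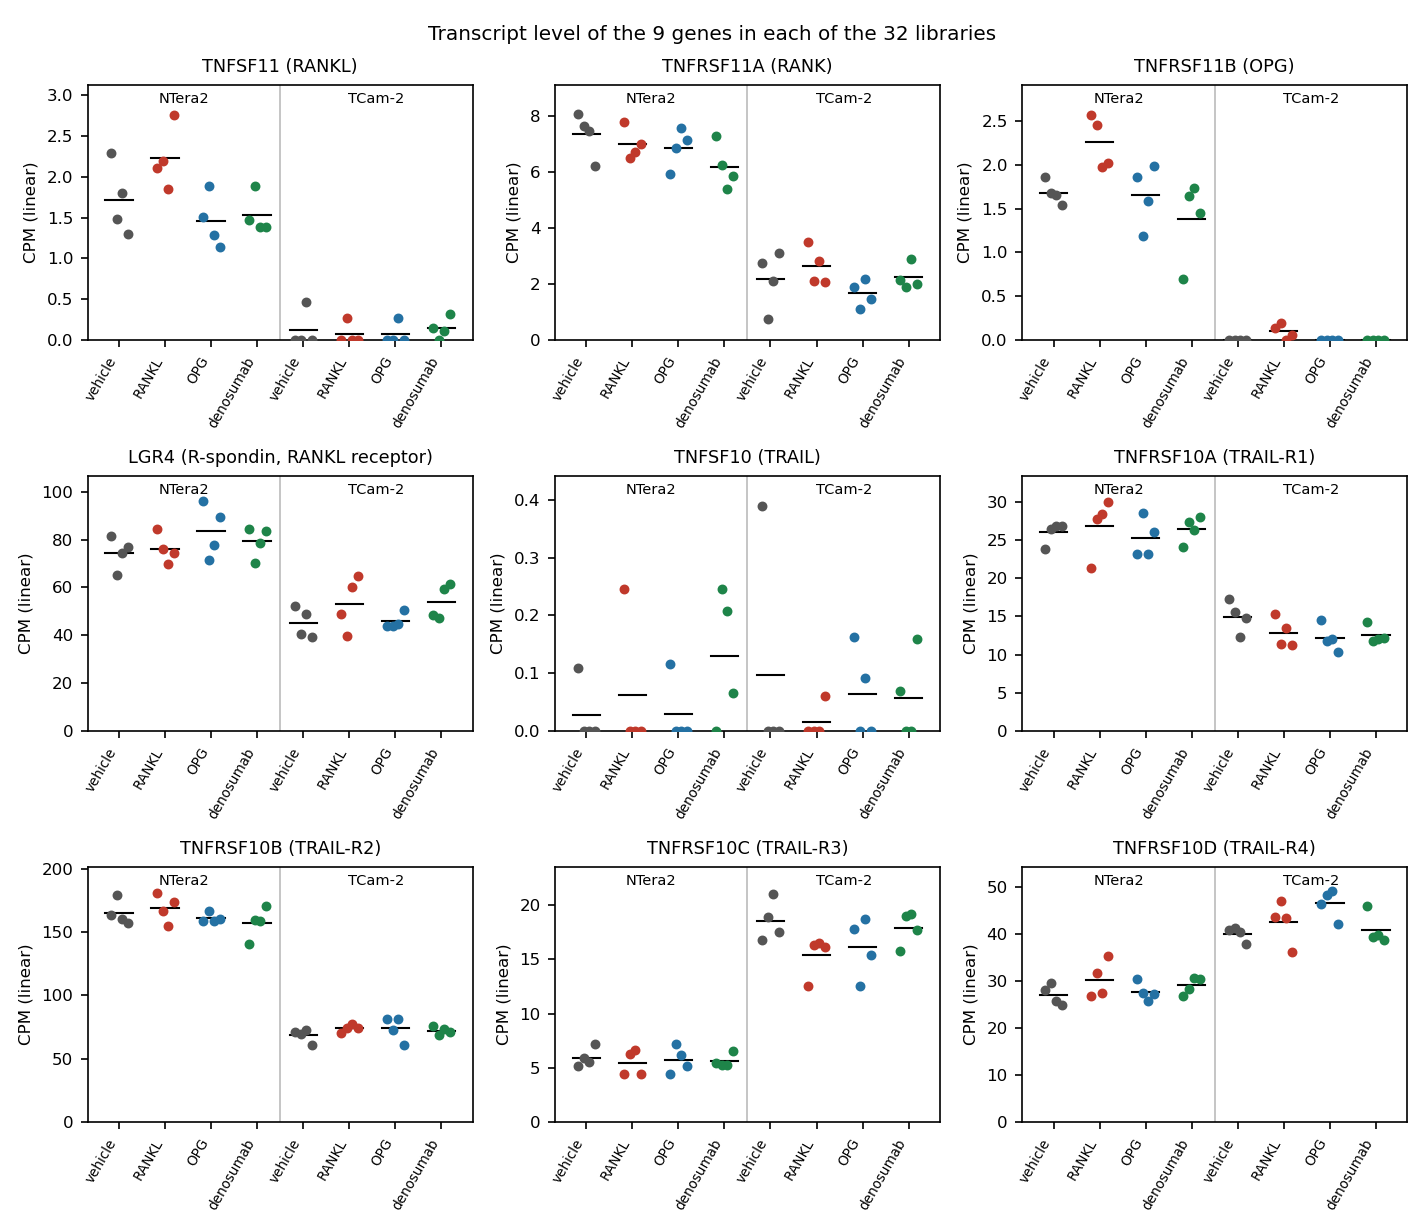
Level of each of the 9 genes (CPM, linear axis from 0) in each of the 32 libraries, by line and treatment; points are libraries and bars are means of 4. TNFSF11 and TNFRSF11B lie near 0 in TCam-2, TNFRSF10C and TNFRSF10D lie higher there, and the treatments of a line lie close together.

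**Figure D2:**
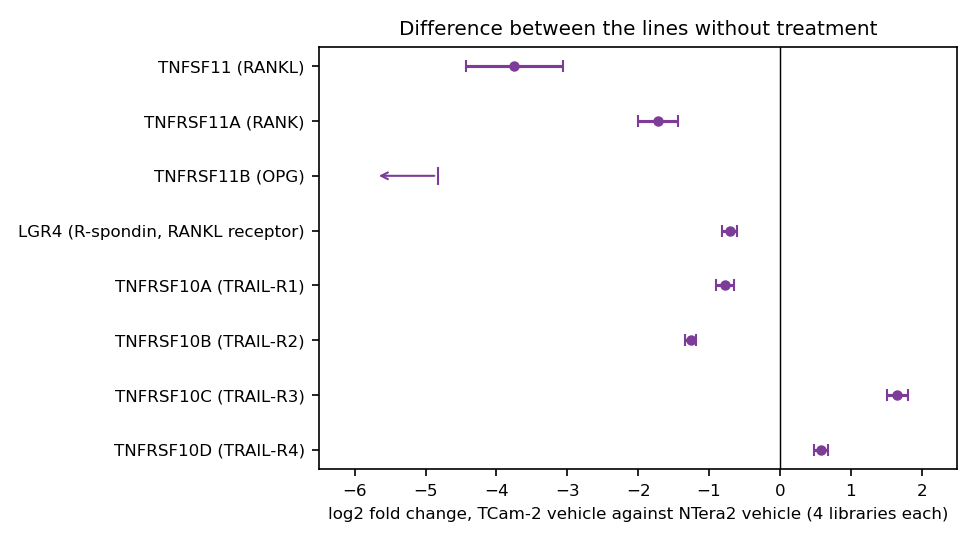
Log2 fold change of TCam-2 vehicle against NTera2 vehicle (4 libraries each) for the 8 genes tested; bars are ± SE. The arrow for TNFRSF11B starts at its bound, at least 28.2-fold lower, and of the 8 genes, TNFRSF10C (1.66) and TNFRSF10D (0.58) alone lie to the right of 0.

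Decoys made up a larger share of the TRAIL receptor transcripts in TCam-2. TNFRSF10C and TNFRSF10D together made up 21.5 ± 0.639% (SD, n = 4) of the summed CPM/kb of the 4 receptors in NTera2 vehicle and 55.5 ± 1.92% in TCam-2 vehicle. The difference was 33.9 percentage points (exact two-sided permutation test, p = 0.0286, the smallest that 4 against 4 can give). In every TCam-2 vehicle library both decoys lay above, and both death-domain receptors below, all NTera2 vehicle libraries. That fixed this p, which adds no support to the results of the single genes. Over the 4 treatments the NTera2 libraries lay at 19.3 to 23.4% and the TCam-2 libraries at 51.6 to 58.3%, so no library of one line entered the range of the other. The summed level differed less, at 53.4 ± 2.45 CPM/kb in NTera2 vehicle and 42.1 ± 2.03 CPM/kb in TCam-2 vehicle. TNFRSF10B gave 61.8% of it in NTera2 and 32.4% in TCam-2, TNFRSF10A 16.7% and 12.2%, TNFRSF10C 7.22% and 28.6%, and TNFRSF10D 14.3% and 26.9%. Without division by length the difference in decoy share was 26.6 points. The uncertain level of TNFRSF10C, described above, carries into all of these shares.

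**Figure D3:**
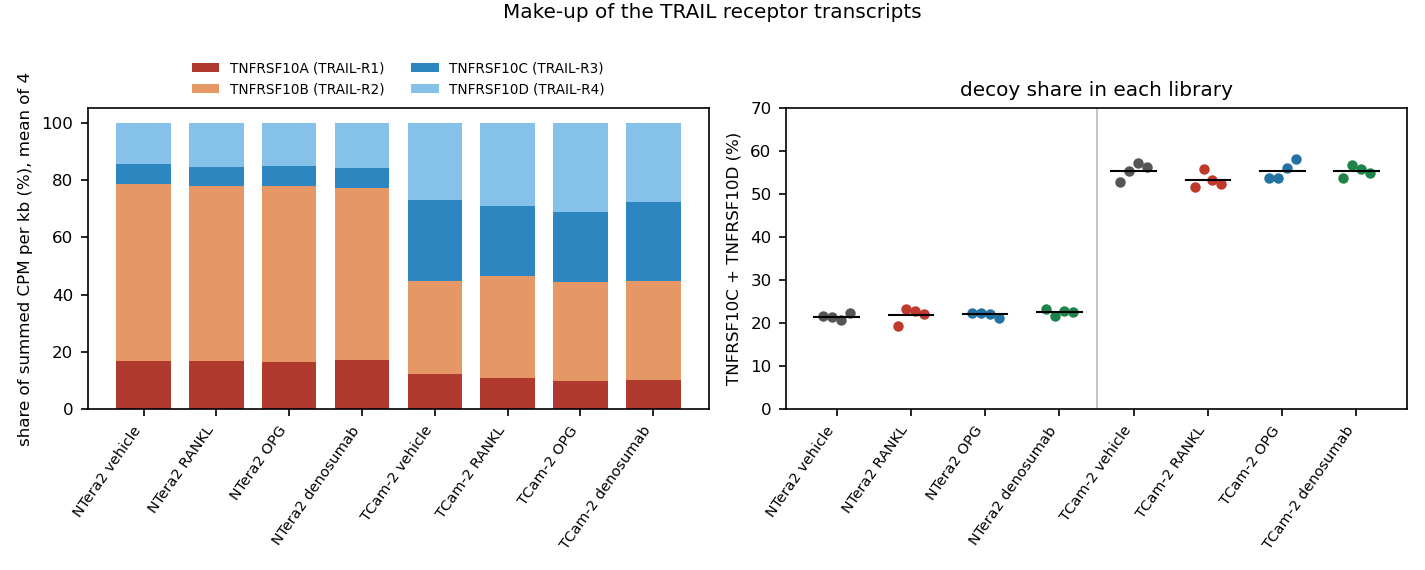
Left, mean share (%) of each TRAIL receptor in the summed CPM/kb of the 4 receptors, by group (mean of 4 libraries); right, the share of the decoys TNFRSF10C and TNFRSF10D in each library, with group means as bars. NTera2 libraries lie between 19.3 and 23.4% and TCam-2 libraries between 51.6 and 58.3%, in every treatment. The uncertain level of TNFRSF10C enters every share.

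Ordered per kilobase, NTera2 vehicle ran from TNFRSF10B (33 CPM/kb) through LGR4 (11.7), TNFRSF10A (8.88), TNFRSF10D (7.65) and TNFRSF10C (3.85) to TNFRSF11A (0.817), TNFRSF11B (0.668), TNFSF11 (0.629) and TNFSF10 (0.00793). The ranges of TNFRSF10A and TNFRSF10D overlapped, as did those of TNFRSF11A with TNFRSF11B and TNFRSF11B with TNFSF11. In TCam-2 vehicle TNFRSF10B (13.6 CPM/kb), TNFRSF10C (12) and TNFRSF10D (11.3) came first, each overlapping the next. LGR4 (7.11) and TNFRSF10A (5.12) followed without overlap, and TNFRSF11A (0.241), TNFSF11 (0.043) and TNFSF10 (0.0283) overlapped below them, with TNFRSF11B at 0. The death receptor TNFRSF10B thus led in both lines, but stood apart from the decoys in NTera2 and not in TCam-2.

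The treatments did not move any of these genes past the test. Between treatments of a line, 70 comparisons of these genes were tested, 8 genes in NTera2 and 6 in TCam-2, each for 3 treatments against vehicle and for OPG and denosumab against RANKL. edgeR called 0 of the 70 at an adjusted p of 0.05, an unadjusted p below 0.05 was reached by 5 (7.14%), and by DESeq2 none was called. Over all genes, the share with an unadjusted p below 0.05 was 0.933 to 10.3% in the 10 comparisons, so 5 of 70 lies within that background. Of all genes, 0% were called in any of these comparisons (17351 genes tested in NTera2 and 16621 in TCam-2). The largest log2 fold change among the 70 was 0.72 in size, and the smallest adjusted p was 0.509. The median log2 fold change of the genes tested lay between -0.12 and 0.06 in the 10 comparisons, and that of all genes between -0.01 and 0.01. The comparisons with vehicle share the same 4 vehicle libraries, and those with RANKL the same 4 RANKL libraries. A missed threshold does not show that levels were equal, so the sizes are given.

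Of the ligand and its decoy in NTera2, TNFSF11 stood at 2.11, 2.19, 1.85 and 2.76 CPM with RANKL, at 1.51, 1.88, 1.29 and 1.14 CPM with OPG and at 1.47, 1.89, 1.39 and 1.38 CPM with denosumab. The RANKL libraries were high within this set and overlapped vehicle through vehicle replicate 1. The log2 fold change of RANKL against vehicle was 0.39 with a 95% interval of -0.15 to 0.93, that of OPG against RANKL -0.61 (SE 0.278, unadjusted p = 0.0363, edgeR adjusted p = 0.913) and that of denosumab against RANKL -0.55 (SE 0.283, edgeR adjusted p = 1).

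TNFRSF11B stood at 2.57, 2.46, 1.97 and 2.02 CPM with RANKL, at 1.86, 1.19, 1.59 and 1.99 CPM with OPG and at 0.696, 1.64, 1.73 and 1.45 CPM with denosumab in NTera2. All 4 RANKL libraries lay above all 4 vehicle and all 4 denosumab libraries. Both separations use the same RANKL libraries, and the share of all genes that separate in this way was not determined. The log2 fold change of RANKL against vehicle was 0.46 (SE 0.28, unadjusted p = 0.113, edgeR adjusted p = 0.557), and that of denosumab against RANKL was -0.72 (SE 0.29, unadjusted p = 0.0204, edgeR adjusted p = 1). The latter was -0.51 without denosumab replicate 1, the lowest library. These values rest on 183 TNFRSF11B counts over the RANKL group, 107 over vehicle and 76 over denosumab. In TCam-2 TNFSF11 and TNFRSF11B were too low to be tested, with at most 8 counts of either in a group.

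The per-length ratio of TNFSF11 to TNFRSF11B, which sets ligand against decoy within a library, was 0.933 ± 0.168 in NTera2 vehicle and 0.923 ± 0.226 with RANKL (SD, n = 4 each). With OPG it was 0.868 ± 0.405 and with denosumab 1.15 ± 0.541. The mean log2 ratio differed from vehicle by -0.03, -0.19 and 0.22, which is within the spread between libraries (exact two-sided permutation tests, p = 0.914, 0.514 and 0.629, each adjusted over the 3 to 0.914). Single libraries moved these differences: that of OPG was -0.48 without OPG replicate 2 and 0.01 without OPG replicate 4, that of denosumab was -0.07 without denosumab replicate 1 and 0.4 without replicate 3, and that of RANKL ran from -0.19 to 0.07 leaving out 1 library. Higher ratios than vehicle of the same experiment were found in 2, 1 and 3 of 4 experiments. The transcripts of ligand and decoy had group mean ratios between 0.868 and 1.15 in NTera2.

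The RANKL receptors passed no test between treatments. In NTera2, TNFRSF11A averaged 7.35, 7.01, 6.87 and 6.19 CPM with vehicle, RANKL, OPG and denosumab, and denosumab against vehicle was -0.23 on the log2 scale (95% interval -0.53 to 0.07). In TCam-2 it averaged 2.17, 2.63, 1.66 and 2.23 CPM. The libraries of TCam-2 OPG, at 1.88, 1.11, 2.19 and 1.46 CPM, overlapped those of RANKL, at 3.5, 2.1, 2.82 and 2.08 CPM. In every experiment the OPG library was below the RANKL library, and the share of all genes with such an order was not determined. The log2 fold change of OPG against RANKL was -0.66 (SE 0.332, unadjusted p = 0.0573, edgeR adjusted p = 0.887), and -0.92 without the 2 RANKL libraries of low RNA integrity.

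LGR4 in NTera2 stood at 96, 71.5, 77.9 and 89.3 CPM with OPG, overlapping vehicle, with a log2 fold change of 0.19 (SE 0.0912, unadjusted p = 0.0523, edgeR adjusted p = 1). It was 0.11 without OPG replicate 1, and the same without vehicle replicate 2. LGR4 averaged 76.2 CPM with RANKL and 79.2 CPM with denosumab. Against vehicle of the same experiment it was higher in 4 of 4 experiments with OPG and with denosumab and in 2 of 4 with RANKL. The share of all genes with such counts was not determined. The fit behind the p did not pair libraries by experiment, and a replicate block changed no call. In TCam-2 LGR4 averaged 45.2, 53.2, 45.7 and 54 CPM with vehicle, RANKL, OPG and denosumab. The widest of these groups was RANKL, at 48.8, 39.6, 60 and 64.6 CPM, and its replicates 2 and 4, the lowest and the highest, are those of low RNA integrity. Denosumab against vehicle was 0.21 (SE 0.12, edgeR adjusted p = 0.737).

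Of the TRAIL receptors in TCam-2, TNFRSF10A averaged 15 CPM with vehicle and 12.9, 12.2 and 12.5 CPM with RANKL, OPG and denosumab, but all 3 ranges overlapped vehicle, whose replicate 3 was at 12.3 CPM. The log2 fold changes were -0.27, -0.34 and -0.3 (unadjusted p = 0.0702, 0.0266 and 0.0423, edgeR adjusted p = 0.567, 0.544 and 0.731). Set against vehicle of the same experiment it was lower in 4 of 4 experiments with OPG and with denosumab and in 3 of 4 with RANKL. The share of all genes with such counts was not determined. Without the 2 RANKL libraries of low RNA integrity the log2 fold change with RANKL was -0.12. All 3 comparisons use the same vehicle libraries.

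TNFRSF10C in TCam-2 stood at 12.6, 16.3, 16.5 and 16.2 CPM with RANKL, below all vehicle libraries, and at 17.8, 12.5, 18.8 and 15.4 CPM with OPG, overlapping them. The log2 fold change with RANKL was -0.32 (SE 0.131, unadjusted p = 0.0236, edgeR adjusted p = 0.557) and with OPG -0.24 (SE 0.132, edgeR adjusted p = 0.615), the latter -0.14 without OPG replicate 2. TNFRSF10D stood at 46.4, 48.2, 49.1 and 42.1 CPM with OPG, above all vehicle libraries, with a log2 fold change of 0.18 (SE 0.0932, unadjusted p = 0.06, edgeR adjusted p = 0.582). Here too the share of all genes that separate from vehicle in this way was not determined. TNFRSF10B averaged 68.4 to 74.1 CPM over the 4 TCam-2 groups. In NTera2, the means of TNFRSF10A were 25.3 to 26.9 CPM, of TNFRSF10B 158 to 169 CPM, of TNFRSF10C 5.44 to 5.94 CPM and of TNFRSF10D 27 to 30.2 CPM. TNFRSF10D with RANKL in NTera2, at 26.6, 31.7, 27.3 and 35.3 CPM, overlapped vehicle (log2 fold change 0.19, SE 0.0983, edgeR adjusted p = 0.509, and 0.1 without RANKL replicate 4). The decoy share had group means of 21.5 to 22.6% in NTera2, while the TCam-2 means were 53.4 to 55.5%.

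**Figure D4:**
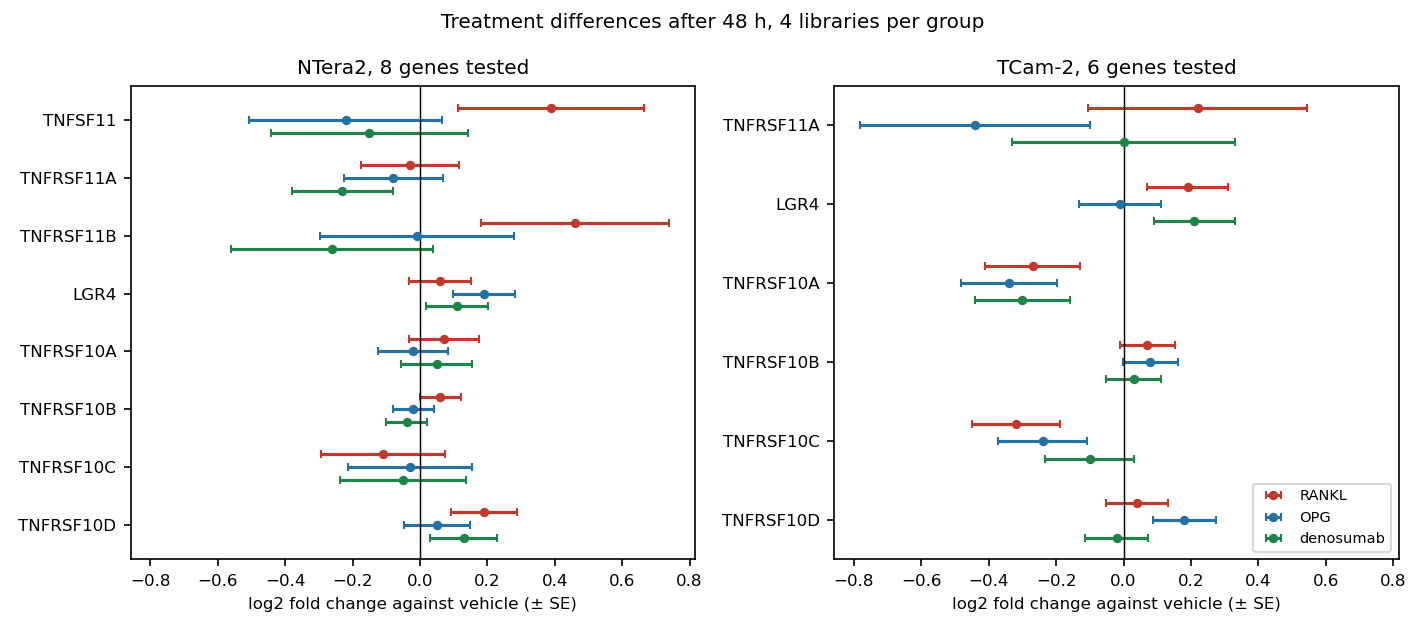
Log2 fold change against vehicle (± SE, 4 libraries per group) after 48 h of RANKL, OPG or denosumab, for the 8 genes tested in NTera2 and the 6 tested in TCam-2. The values lie between -0.44 and 0.46, none passed the test, and the bars are widest for the low-count genes TNFSF11, TNFRSF11B and TCam-2 TNFRSF11A.

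Whether a treatment acted differently on the lines was tested as an interaction over all 32 libraries. edgeR called none of the 8 genes for RANKL, OPG or denosumab, with 0% of the 19216 genes called, and DESeq2 called none of the 8. TNFRSF11B had no count in TCam-2 vehicle, OPG or denosumab, so its OPG and denosumab interactions could not be estimated (SE 29.7 and 465). TNFSF11 had at most 8 counts in a TCam-2 group. For these genes a missing call says nothing about a difference between the lines. One of the 24 values had an unadjusted p under 0.05, as did 5.22, 5.2 and 4.78% of all genes for RANKL, OPG and denosumab. It was TNFRSF11B with RANKL, fitted at 3.19 (SE 1.36, unadjusted p = 0.0258, edgeR adjusted p = 0.941), which compares 6 counts with a TCam-2 vehicle group at 0 and is no bound. For TNFRSF10A the difference between lines was -0.29 with RANKL (edgeR adjusted p = 0.967) and -0.32 with denosumab (edgeR adjusted p = 0.95), and the former was -0.14 without the 2 libraries of low RNA integrity.

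LGR4 differed between experiments in NTera2. A replicate number marks 1 experiment at 1 passage of the line, and the 4 experiments were compared with treatment held fixed. LGR4 averaged 86.6 CPM at passage 27 (81.5 to 96 CPM over the 4 treatments), 70.7 at passage 29, 75.2 at passage 30 and 81.1 at passage 31. Passage 27 lay above the 4 libraries of passage 29 without overlap. The experiments spanned 0.31 on the log2 scale (edgeR adjusted p = 0.0064). LGR4 was the 1 gene called of 8, where 8.28% of the 17351 genes tested were called, so a difference between experiments is not particular to LGR4. Passage as a straight line gave -0.03 per passage (edgeR adjusted p = 0.578).

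The other NTera2 genes passed no such test, TNFRSF10A coming nearest (means of 23.1, 27.5, 26.2 and 27.7 CPM at passages 27, 29, 30 and 31, edgeR adjusted p = 0.12). In TCam-2, 0 of 6 genes were called by edgeR or by DESeq2 and 0 had an unadjusted p under 0.05 in edgeR. Of the 16621 genes tested there, 1.77% were called and 14.4% had such an unadjusted p. LGR4 was called there when vehicle replicate 4, its lowest library, was left out (edgeR adjusted p = 0.0262). Its means at passages 118, 120, 121 and 122 were 48.2, 42.8, 53.2 and 53.9 CPM. The 4 treatments of an experiment share its passage, so passage and experiment cannot be told apart.

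**Figure D5:**
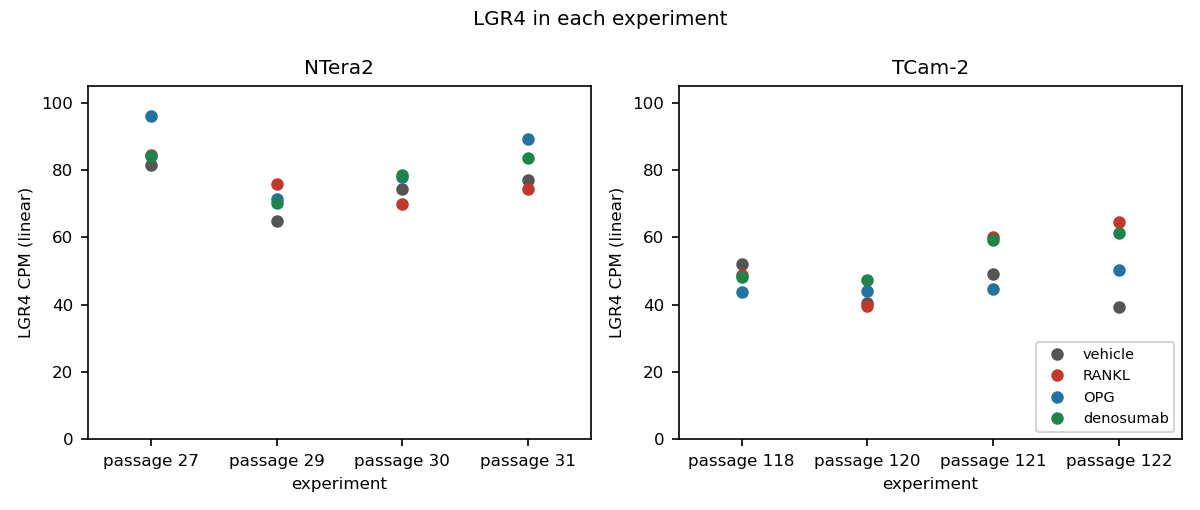
LGR4 level (CPM, linear axis from 0) in each library, by line, passage and treatment; 1 point per library. In NTera2 the 4 libraries of passage 27 (81.5 to 96 CPM) lie above the 4 of passage 29 (65 to 76 CPM).

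The genes that carry signals onward from these receptors were described as 4 lists, chosen with earlier results of these data known. Of 23 adaptors and NF-kB genes downstream of RANK, 11 were higher and 8 lower in TCam-2 vehicle (median log2 fold change 0.28, against -0.01 over all genes). The counts of this and the other lists stand beside 37.4% of all genes called higher and 38.8% called lower in this comparison, and nothing particular to a list is read from them. NFKB2, the precursor of the p52 subunit, was at 943 CPM in TCam-2 and 51.7 CPM in NTera2 (log2 fold change 4.21, edgeR adjusted p = 7.02e-16). The adaptor GAB2 (2.61), the inhibitor NFKBIA (1.76), the kinase CHUK (1.35) and NFKB1 (1.61) were also higher, and TRAF5 was lower (-2.29), all at an edgeR adjusted p of 3.28e-09 or below. RANK itself was lower in that line.

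Of 18 genes of TRAIL death signalling, 17 were tested, 9 of them higher and 4 lower in TCam-2 vehicle (median 0.32). CFLAR, which encodes the caspase-8 inhibitor c-FLIP, was at 275 CPM in TCam-2 and 14.1 CPM in NTera2 (log2 fold change 4.3, edgeR adjusted p = 3.11e-16). The initiators CASP10 (4.88) and CASP8 (2.38) were higher too, and BID, the caspase-8 substrate, was lower (-1.49), all at an edgeR adjusted p of 4.43e-09 or below. XIAP, an inhibitor of caspases, was higher by 0.75 on the log2 scale (edgeR adjusted p = 2.06e-05). Both activators and inhibitors of the pathway were thus among the genes that were higher.

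Of 11 genes of LGR and R-spondin signalling, 7 were tested, 2 of them higher and 4 lower in TCam-2 vehicle (median -0.46). RSPO1, an R-spondin ligand of LGR4, reached 4.57 CPM in NTera2 vehicle but no count in TCam-2 vehicle, at least 76.8-fold lower; it reached the count filter through NTera2 and so had to differ. RSPO4 was at 20.5 and 0.345 CPM (log2 fold change -5.8, edgeR adjusted p = 2.26e-11). RSPO4 too reached the count filter through NTera2 and so had to differ. RNF43, a ubiquitin ligase that R-spondins hold in check, was higher in TCam-2 (3.36), as was the scaffold protein IQGAP1 (0.92), while the WNT coreceptor LRP6 (-0.68) and the ligase ZNRF3 (-0.46) were lower, all at an edgeR adjusted p of 0.00368 or below. ZNRF3 stood at -0.19 (edgeR adjusted p = 0.00922) in a fit over all 32 libraries with treatment as a covariate. With no filter on low counts, and with DESeq2, 10 genes of this list were called.

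Of 12 other death receptors and TNF ligands, 7 were tested, 1 of them higher and 5 lower in TCam-2 vehicle (median -1.68). TNFRSF8, which encodes CD30 and is itself an embryonal carcinoma marker, fell from 72.6 CPM in NTera2 to 1.97 CPM in TCam-2 (log2 fold change -5.17, edgeR adjusted p = 2.91e-15). TNFRSF12A, the TWEAK receptor, was lower as well (-1.72, edgeR adjusted p = 1.2e-07). TNFRSF1A, the one that was higher, differed by 0.21 (edgeR adjusted p = 0.0113) and was not called by DESeq2 (adjusted p = 0.0611), with no filter on low counts, or without TCam-2 vehicle replicate 4.

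No gene of the 4 lists was called by edgeR in any comparison of treatments. The smallest unadjusted p of each list against vehicle belonged to SRC, a kinase of the RANK complex, in NTera2 with RANKL (log2 fold change -0.24, edgeR adjusted p = 0.368), CASP10 in TCam-2 with OPG (0.23, edgeR adjusted p = 0.544), ZNRF3 in NTera2 with RANKL (-0.36, edgeR adjusted p = 0.368) and FAS in TCam-2 with RANKL (1.46, edgeR adjusted p = 0.557). FAS was at 2.25 ± 1.69 CPM with RANKL and 0.788 ± 0.439 CPM with vehicle (SD, n = 4), and its difference was 0.81 without RANKL replicate 1. NFKBIA, an immediate target of NF-kB, was at 55.3 ± 2.86 CPM with RANKL and 61.9 ± 5.09 CPM with vehicle in TCam-2 (log2 fold change -0.21, SE 0.0891, edgeR adjusted p = 0.557). With denosumab, against the same vehicle libraries, it was at 55.8 ± 4.1 CPM (-0.2, SE 0.0897, edgeR adjusted p = 0.731).

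For each RANKL receptor, the genes with the highest correlation from library to library were picked out. Over the 16 NTera2 libraries the log2 CPM of LGR4 was most like that of KPNA1 (Pearson r = 0.93), KNTC1 (0.93) and DIS3 (0.91) among 15149 genes, and over the 16 TCam-2 libraries most like PGM3 (0.92), SLC39A10 (0.91) and ENPP1 (0.91) among 14595 genes. TNFRSF11A was most like MAN1A1 (0.73), PAX6 (0.71) and MYL3 (0.7) in NTera2 and FAM20A (0.87), ETFBKMT (0.86) and LINC01484 (0.85) in TCam-2. These values are descriptions, the highest of many over libraries that share experiments. Whether they exceed what such picking gives among unrelated genes was not tested. The r of TNFRSF11A and of LGR4 with the library's total count was 0.27 and 0.25 in NTera2 and 0.34 and 0.47 in TCam-2. The genes named for a receptor differed between the lines.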

How the data were processed

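PolyA RNA of 32 libraries (52-bp paired-end, strand-marking kit) was measured. Per the submitters' processing notes the tools were bcl2fastq 2.20.0, STAR 2.7.9a and featureCounts 1.6.2 with GRCh38; annotation release and strand setting are not given in the sources used here. The deposited table holds whole-number counts per gene, made by the authors. From these counts, CPM were computed on TMM-scaled library sizes and divided by the table's gene length for CPM/kb, which can shift genes whose used transcripts are shorter. Tests were edgeR 4.0.16 quasi-likelihood fits (R 4.3.3, limma 3.58.1) after filterByExpr, with Benjamini-Hochberg adjustment over all genes tested and calls at an adjusted p of 0.05. The lines were compared on the 8 vehicle libraries, the treatments in 1 fit of the 16 libraries of a line, and interactions and experiments as stated beside them. The scripts were tested on simulated data. DESeq2 1.42.0, another normalization, no filter, a replicate block, smaller fits and leaving out each library were the alternatives. Figures were drawn with Python 3.11.15 and matplotlib 3.10.9.

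Groups came from the titles. Same-numbered libraries of a line are the same passage per the labels, which pairs them; over 9986 genes their deviations correlated at 0.21 on average in NTera2 (-0.16 to 0.6 over 24 pairs) and 0.14 in TCam-2 (-0.22 to 0.41), and the block changed no call of these genes. Numbers do not pair the lines. All replicate pairs of a group differed by more than sampling noise (chi-square per degree of freedom 2.57 to 17.5 over 48 pairs). Intervals and floors (3 counts) cover counting error only. The members and lists were chosen with earlier results of these data known. Named besides the 9 genes are, per list, up to 6 called genes by smallest p (some of these are not reported here) or, with none called, up to 2 with the smallest unadjusted p, and for TNFRSF11A and LGR4 the 3 genes of at least 1 CPM with the highest r per line. Sequences of the chromosome 8 genes and proteins are not shown.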

Additional observations from a re-analysis of the deposited data

Results flagged for a closer look

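Of 81 groups of 4 libraries tested, 14 held a library far from the other 3 (its gap to the nearest, as a part of the group's range, beyond Dixon's 95% limit), a rule that chance meets in about 1 group in 20. Of these, 8 are groups of near-silent genes in which 1 library holds all the counts. For TNFSF11 they are TCam-2 vehicle replicate 3 (0.47 CPM, 6 counts), RANKL replicate 2 (0.263 CPM, 4 counts) and OPG replicate 3 (0.274 CPM, 3 counts). For TNFSF10 they are NTera2 vehicle, RANKL and OPG replicate 1 (0.109, 0.245 and 0.116 CPM) and TCam-2 vehicle replicate 1 (0.39 CPM) and RANKL replicate 4 (0.0595 CPM).

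The other 6 are in expressed genes. LGR4 was at 50.3 CPM in TCam-2 OPG replicate 4, with the next library at 44.8 CPM. TNFRSF10A was lowest in NTera2 vehicle replicate 1 (23.9 CPM, next 26.5) and highest in TCam-2 denosumab replicate 1 (14.2 CPM, next 12.1). TNFRSF10C was highest in NTera2 denosumab replicate 4 (6.51 CPM, next 5.42) and lowest in TCam-2 RANKL replicate 1 (12.6 CPM, next 16.2). TNFRSF10D was highest in TCam-2 denosumab replicate 1 (45.8 CPM, next 39.8).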

How the results depend on the processing

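The 8 differences between the lines kept their direction and stayed called under all 13 alternatives each. For TNFSF11 and TNFRSF11B this adds no support, as they reached the count filter through NTera2 and so had to differ. No value of the treatment comparisons of these genes was called under any of 928 alternative values (smallest adjusted p 0.211, LGR4 in TCam-2 with RANKL without RANKL replicate 2). The sign changed in 59 of these values, in 24 results of at most 0.22 in size on the log2 scale. The decoy share difference was 26.6 points without division by gene length, 32.9 over all 16 libraries of each line and 33.3 to 34.8 points leaving out 1 library. With passage as a linear trend, 0 genes of the 9 were called in NTera2 and LGR4 stood at -0.03 per passage; in TCam-2 the count of called genes was 0 to 1 leaving out 1 library. The replicate block changed no call of these genes; for the ratio of TNFSF11 to TNFRSF11B its exact sign-flip test gave differences of -0.03, -0.19 and 0.22 for RANKL, OPG and denosumab (p = 1, 0.625 and 0.5).

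Counts over all genes moved more. Against 0 called in each treatment comparison, no filter on low counts gave 176 in NTera2 RANKL, 237 in NTera2 denosumab, 51, 54 and 28 in TCam-2 RANKL, OPG and denosumab against vehicle, 1 in NTera2 OPG against RANKL, 3 and 1 in TCam-2 OPG and denosumab against RANKL, and 1, 3 and 32 for the RANKL, OPG and denosumab interactions. DESeq2 gave 16 in NTera2 denosumab, 1 and 3 in TCam-2 RANKL and OPG and 1 for the RANKL interaction. The replicate block gave 30 in NTera2 denosumab, 2 in TCam-2 denosumab and 1 for the denosumab interaction. For experiments, TCam-2 went from 294 to 750 with no filter, 672 with DESeq2 and 140 without the 2 libraries of low RNA integrity, and a passage trend gave 56 in NTera2 and 118 in TCam-2. Leaving out 1 library gave 538 to 2409 genes across NTera2 experiments, 90 to 845 across TCam-2 experiments and 0 to 29 for NTera2 denosumab. Depth limits TNFSF11, TNFRSF11B and TNFSF10: in TCam-2 a group at 0 counts allows 0.0459 to 0.0595 CPM.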
